A study of Caenorhabditis elegans with 8 samples.

Results

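The 8 genes described here encode small heat shock proteins of Caenorhabditis elegans. They were taken by name from the deposited expression table and are sip-1, hsp-12.1, hsp-12.3, hsp-12.6, hsp-16.2, hsp-16.41, hsp-25 and hsp-43. All 8 had a row among the 41560 rows of the table, and all 8 were among the 14564 genes that passed the filter on low values. Whole young adult worms grown at 20 °C on NGM agar plates were measured by RNA-seq in 8 libraries, 2 for each of 4 groups. The groups crossed 2 genotypes, wild type (the Bristol strain N2) and the daf-16 mutant daf-16(mgDf50), with 2 bacterial foods, Escherichia coli BW25113 and BW25113 lacking hns. DAF-16 is a FOXO-family transcription factor restrained by insulin-like signalling, and hns encodes the bacterial DNA-binding repressor H-NS. The series asks how bacteria without hns act through DAF-16. The labels give no heat treatment for any group, and nothing in them says that libraries of 1 group were separate cultures of worms, so p-values reflect only the scatter of these samples, and that scatter may be technical.

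Small heat shock proteins are chaperones built around an alpha-crystallin domain. They hold unfolding proteins without using ATP until the ATP-dependent chaperones refold or clear them. In C. elegans the HSP-16 genes are nearly silent without stress and are induced by heat through the transcription factor HSF-1, and several small heat shock protein genes, hsp-16.2 and hsp-12.6 among them, are known as targets of DAF-16 in worms with reduced insulin-like signalling. Others of the family are made without stress in particular tissues, SIP-1 in oocytes and embryos and HSP-25 in muscle.

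Expression is given as FPKM, fragment counts scaled by the authors to transcript length and library size, so levels can be set side by side between genes. Libraries held an implied 23700000 to 26400000 fragments, an approximate depth read from the spacing of low values. On the main axis of variation among all genes (24.7% of the variance), replicate 1 of wild type on hns food lay farthest out, at 53.5 against 20.1 for its partner and -32.9 to 12.58 for the others. The daf-16 transcript separated the genotypes, at 69.9 to 77.4 FPKM in the 4 wild-type libraries and 15.8 to 19.2 FPKM in the 4 mutant libraries. Differences were tested with limma on log2(FPKM + 1) over all genes, with 2 libraries a group and 4 groups in the fit. Fold changes from limma are on that scale, where changes of low genes come out too small, and an adjusted p under 0.05 (Benjamini-Hochberg, over all genes tested) counted as past the threshold. Markers of each of germline, oocytes, sperm, embryos, muscle, hypodermis, intestine and neurons were detected, as the label of whole worms requires. Sperm markers were lowest, with a sum of 2.24 to 4.81 FPKM. Of 6 intestine markers 5 had a row, and of 6 sperm markers 3 were tested. Of the germline, sperm, intestine and neuron markers tested 0 passed by limma in any comparison (0 or 1 of a list at an unadjusted p under 0.05). In whole worms, fewer cells of a type and less RNA per cell cannot be told apart.

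Of the 8 genes, hsp-12.1 rose on hns food in wild type, and sip-1 fell in the daf-16 mutant with the foods pooled. The heat-inducible genes hsp-16.2 and hsp-16.41 stayed below 5 FPKM in every library and did not pass in any comparison. The known DAF-16 target hsp-12.6 lay lower in all 4 mutant libraries than in all 4 wild-type libraries without passing the threshold. No member passed for the interaction of food and genotype.

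Levels spanned a wide range within the family. The sip-1 transcript lay between 1102 and 1719 FPKM, and it alone held 77.7% to 88.3% of the summed FPKM of the 8 genes in a library. It ranked between 193 and 283 among all genes by FPKM. Next came hsp-25 at 116 to 144 FPKM and hsp-43 at 64.9 to 111 FPKM, whose ranges over the 8 libraries did not meet. The range of hsp-12.1, 30.5 to 69.4 FPKM, overlapped that of hsp-43. The remaining 4 genes lay low and overlapped each other, with hsp-12.3 at 2.28 to 5.36, hsp-12.6 at 1.13 to 6.16, hsp-16.2 at 0.824 to 4.57 and hsp-16.41 at 0.676 to 3.65 FPKM. At the implied depth the last 4 rested on about 28 to 60, 17 to 85, 8 to 45 and 7 to 42 fragments a library, so counting error alone is large for them. In contrast, sip-1 rested on at least about 11490 fragments a library. These numbers are rough. They assume fragments of 200 nt and the longest transcript of each gene. The depth came from transcripts over 1000 nt, while those of sip-1 (640 nt) and the 4 low genes (578 to 769 nt) are shorter.

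**Figure D1:**
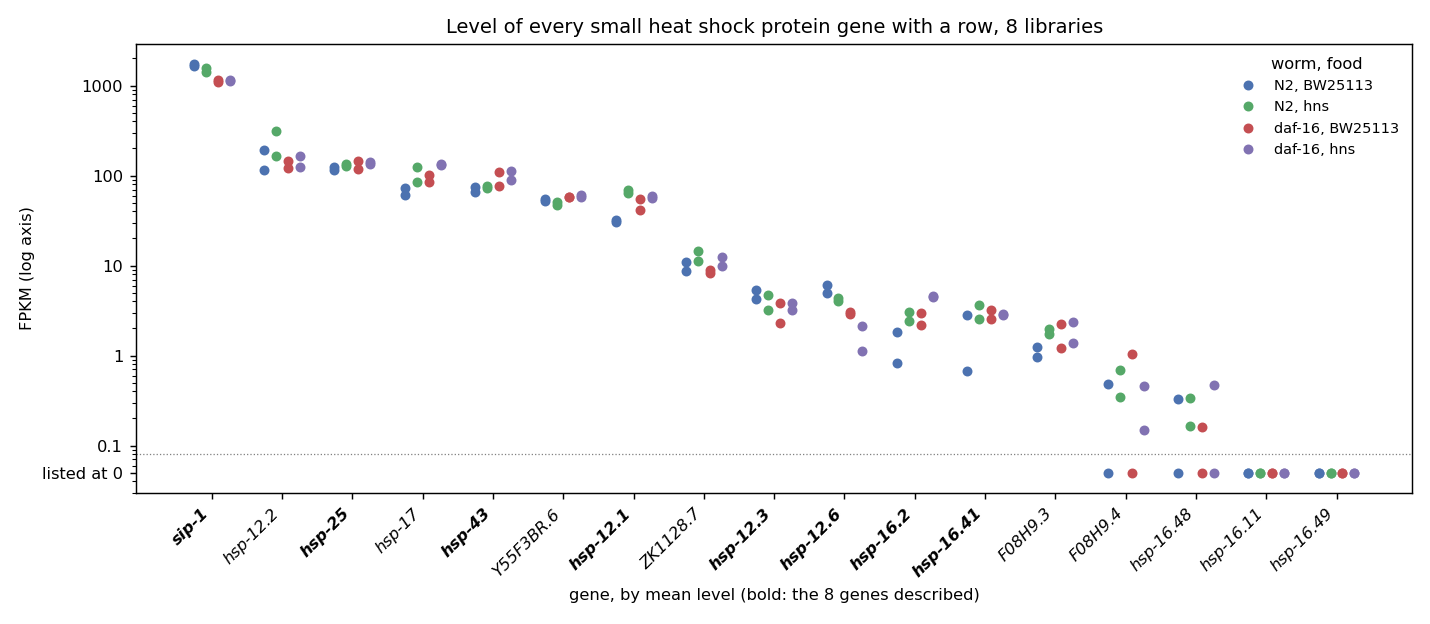
FPKM on a log axis for every small heat shock protein gene with a row, ordered by mean level, with 1 point for each of the 8 libraries coloured by worm and food. The gene sip-1 stands at 1102 to 1719 FPKM, hsp-12.3, hsp-12.6, hsp-16.2 and hsp-16.41 lie between 0.676 and 6.16 FPKM, and hsp-16.11 and hsp-16.49 are listed at 0 in every library (points under the dotted line).

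The SIP-1 protein is a small heat shock protein of eggs and embryos, and its gene lies on chromosome III. On BW25113 food the wild-type libraries held sip-1 at 1653 and 1719 FPKM and the mutant libraries at 1102 and 1156 FPKM. On hns food the values were 1430 and 1572 FPKM in wild type against 1127 and 1163 FPKM in daf-16. All 4 mutant libraries thus lay below all 4 wild-type libraries, an order that held for 2.15% of all genes tested. The mutant libraries spread little among themselves. Over both foods the mean fell from 1594 ± 125 to 1137 ± 28.3 FPKM (SD, n = 4 libraries a genotype), which is 1.40-fold. On the log2 scale limma gave -0.48 ± 0.06 (SE, 95% interval -0.62 to -0.35, adjusted p = 0.0213). By that rule 0.831% of all genes were called for the genotype over both foods, 0.268% of all genes were called lower, and sip-1 was the only one of the 8 members.

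Within a single food the sip-1 difference did not pass. It was -0.58 ± 0.08 on BW25113 food (limma adjusted p = 0.0759), where 0.261% of all genes were called, and -0.39 ± 0.08 on hns food (adjusted p = 0.223), where 0.233% were called. Food itself gave -0.17 ± 0.08 in wild type (limma adjusted p = 0.353), where the hns libraries lay below the BW25113 libraries. That food order held for 28.9% of all genes tested. In daf-16 it gave 0.02 ± 0.08 (adjusted p = 0.961), with overlapping values. The 8 oocyte markers, among them the yolk receptor gene rme-2, summed to 3523 to 3657 FPKM in wild type and 2858 to 3422 FPKM in daf-16 on BW25113 food. On hns food the sums were 3026 to 3286 and 2845 to 3148 FPKM. All 8 oocyte markers lay below 0 for the genotype over both foods, with a median of -0.14 and 0 past the limma threshold (1 at an unadjusted p under 0.05); none was at 0. The 6 embryo markers summed to 26.2 to 27.4 FPKM in wild type and 25.9 to 30.2 FPKM in daf-16, with 0 of the 5 tested past the limma threshold (0 at an unadjusted p under 0.05). The part of oocyte and embryo content in the sip-1 difference was not tested. The call was lost without any 1 of 6 libraries (limma adjusted p of 0.0611 to 0.123) and held without replicate 1 of wild type on hns food (0.0475) or replicate 2 of daf-16 on BW25113 food (0.0476).

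**Figure D2:**
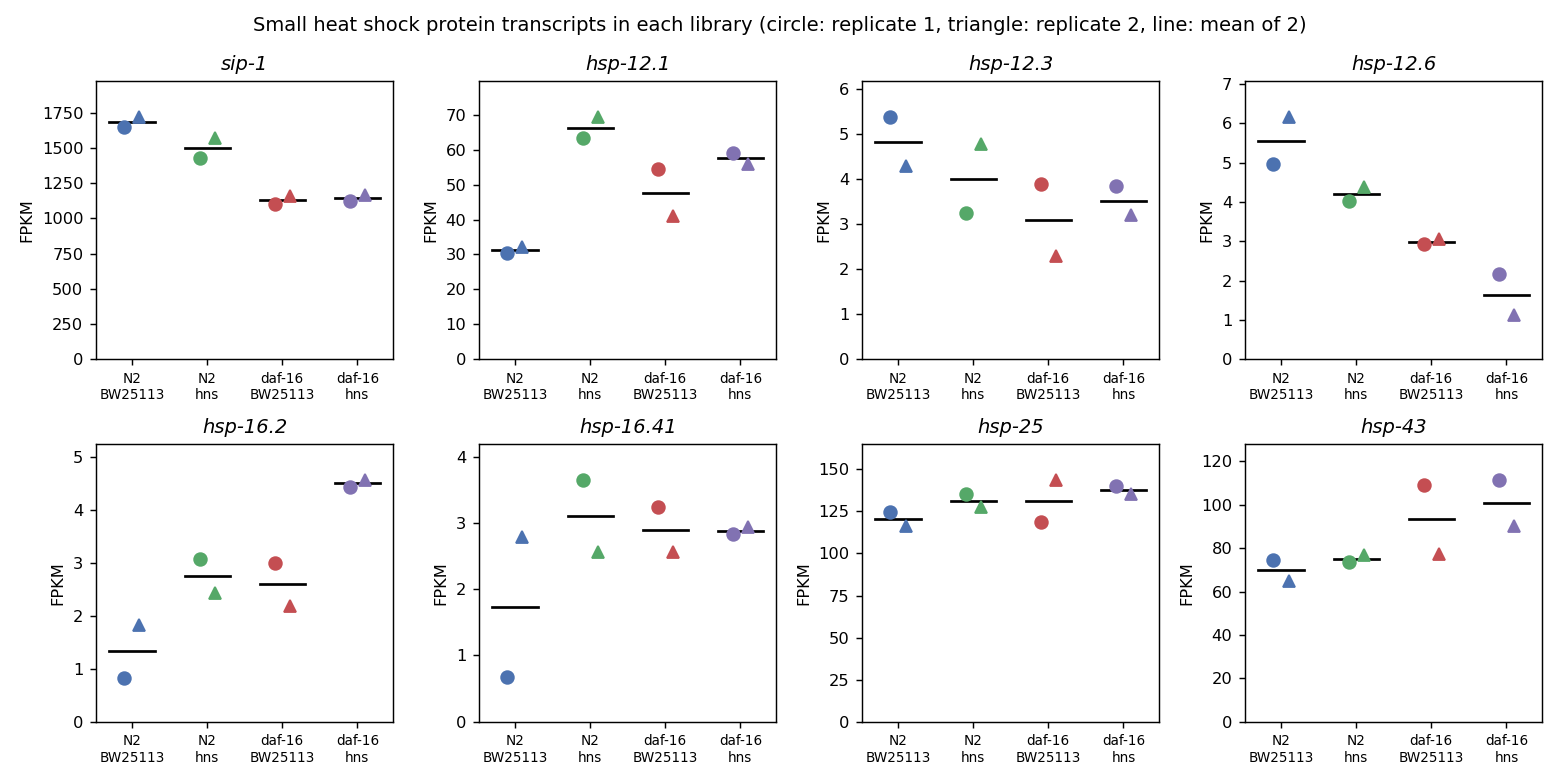
FPKM of each of the 8 genes in each library, by worm and food, with axes that start at 0, circles for replicate 1, triangles for replicate 2 and a line at the mean of 2. In sip-1 the mutant libraries lie between 1102 and 1163 FPKM, below all wild-type libraries, and in hsp-12.1 the 2 wild-type libraries on BW25113 food, at 30.5 and 32.3 FPKM, lie below all others.

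The hsp-12.1 gene, on chromosome I, encodes a member of the HSP-12 class, short small heat shock proteins with very little sequence on either side of the alpha-crystallin domain. Wild-type libraries held 30.5 and 32.3 FPKM with BW25113 as food against 63.4 and 69.4 FPKM with hns bacteria. Mutant libraries held 54.5 and 41 FPKM with BW25113 against 59.3 and 55.9 FPKM with hns bacteria. Both libraries of wild type on BW25113 food lay below the other 6.

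In wild type hns food raised hsp-12.1 2.12-fold, from 31.4 ± 1.28 to 66.4 ± 4.24 FPKM (SD, n = 2). On the log2 scale limma gave 1.06 ± 0.13 (SE, 95% interval 0.73 to 1.38, adjusted p = 0.0327). Of all genes 0.872% were called for that comparison, 0.645% of all genes were called higher, and hsp-12.1 was the only member. In daf-16 the change was 0.28 ± 0.13 (limma adjusted p = 0.805), where 0.405% of all genes and 0 of the 8 members were called (2 members at an unadjusted p under 0.05). With replicate 1 of the mutant fed BW25113 left out that value was 0.48, and with replicate 2 left out it was 0.08. Over both genotypes hns food raised it from 39.5 ± 11 to 62 ± 5.81 FPKM (SD, n = 4), by 0.67 ± 0.09 on the log2 scale (limma adjusted p = 0.0327), where 1.76% of all genes were called and hsp-12.1 was again the only member (1.24% of all genes were called higher). These food effects share libraries, so the pooled value is not a second piece of evidence.

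The genotype difference of hsp-12.1 lay on opposite sides of 0 on the 2 foods. On BW25113 food both mutant libraries lay above both wild-type libraries (0.58 ± 0.13, limma adjusted p = 0.247), and on hns food both lay below (-0.20 ± 0.13, adjusted p = 0.782). Taken singly, the first order held for 23.5% of all genes tested and the second for 17.3%. The log2 value of hsp-12.1 on BW25113 food was 0.38 without replicate 1 and 0.78 without replicate 2 of daf-16 on that food. Its value on hns food lay between -0.27 and -0.14 with any 1 library left out. The interaction, the food effect in wild type minus that in daf-16, was 0.78 ± 0.19 with a 95% interval of 0.32 to 1.24. It did not pass (limma adjusted p = 0.9999), in a comparison that called 0.0961% of all genes and 0 of the 8 members (1 member, hsp-12.1, at an unadjusted p under 0.05). Without any 1 of the 4 wild-type libraries, or either library of daf-16 on hns food, the food effect in wild type kept its direction and lost its call. The limma adjusted p was then 0.153 without replicate 1 of wild type on hns food, 0.13 without its partner, 0.152 and 0.16 without replicate 1 or 2 on BW25113 food, and 0.0697 and 0.0706 without either daf-16 library on hns food. The pooled food effect lost its call without the same 6 libraries (0.0904 to 0.141).

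For food in wild type, 5 of 6 hypodermis markers lay above 0 with a median of 1.21 on the log2 scale, and sqt-3 (a cuticle collagen gene) and wrt-10 (hedgehog-related) passed the threshold upward (limma log2 fold changes of 1.68 ± 0.18 and 1.70 ± 0.25, adjusted p = 0.023 and 0.0482). Their summed level overlapped, at 919 to 1169 FPKM on BW25113 food and 836 to 1580 FPKM on hns food, because the adult collagen gene col-19 made up most of it; none was at 0. Of 6 muscle markers 5 lay above 0 with a median of 0.24 and 0 past the limma threshold (3 at an unadjusted p under 0.05), and they summed to 455 to 469 FPKM on BW25113 food and 515 to 526 FPKM on hns food. Over both genotypes 5 of the 6 hypodermis markers lay above 0 for food with a median of 0.57, and the cuticle collagen genes dpy-7 and sqt-3 and wrt-10 passed upward (1.19 ± 0.19, 1.14 ± 0.13 and 1.06 ± 0.18, limma adjusted p = 0.0403, 0.0145 and 0.0487). Of the muscle markers 5 of 6 lay above 0 with a median of 0.17, and hlh-1, a muscle transcription factor gene, passed (0.70 ± 0.10, limma adjusted p = 0.031). For genotype all 6 hypodermis markers lay above 0 on BW25113 food with a median of 0.85, and 2 of 6 did on hns food with a median of -0.11, with 0 past the limma threshold on either food (4 and 0 at an unadjusted p under 0.05). Their interaction lay above 0 for 5 of 6 with a median of 1.09 and 0 past the limma threshold (4 at an unadjusted p under 0.05). The part of these tissues in the food effects, the genotype differences and the interaction of hsp-12.1 was not tested.

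The hsp-12.6 and hsp-12.3 genes are coding neighbours on chromosome IV, both on the minus strand in the WBcel235 reference. HSP-12.6 is known as a DAF-16 target that contributes to the long life of insulin receptor mutants, and the HSP-12.3 protein belongs to the same short class. On BW25113 food hsp-12.6 was measured at 4.96 and 6.16 FPKM in wild type against 2.92 and 3.06 FPKM in daf-16. On hns food the values were 4.03 and 4.38 FPKM in wild type against 2.15 and 1.13 FPKM in daf-16. The lowest wild-type library lay above the highest mutant library, and on each genotype the hns libraries lay below the BW25113 libraries. Among all genes tested the genotype order held for 2.15%. The food order held for 28.9% in wild type and 14.7% in daf-16.

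Over both foods hsp-12.6 averaged 4.88 ± 0.932 FPKM in wild type and 2.32 ± 0.885 FPKM in daf-16 (SD, n = 4), a ratio of 2.11. The limma estimate on the log2 scale was -0.86 ± 0.15, with a 95% interval of -1.22 to -0.49. This missed the threshold (adjusted p = 0.0788). The single-food values were -0.71 ± 0.21 on BW25113 food and -1.004 ± 0.21 on hns food (limma adjusted p = 0.365 and 0.257). For food the values were -0.33 ± 0.21 in wild type and -0.62 ± 0.21 in daf-16 (limma adjusted p = 0.457 and 0.661), with estimates below 0 in both genotypes. Leaving out 1 library moved the daf-16 value to between -0.90 and -0.34, the ends being without replicate 1 and without replicate 2 of daf-16 on hns food. The wild-type value was -0.46 without replicate 1 and -0.20 without replicate 2 on BW25113 food.

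For its neighbour hsp-12.3, wild-type libraries held 5.36 and 4.29 FPKM with BW25113 as food against 3.24 and 4.77 FPKM with hns bacteria. Mutant libraries held 3.88 and 2.28 FPKM against 3.85 and 3.19 FPKM. The groups overlapped for food in both genotypes and for genotype on hns food, and over both foods the genotype gave -0.34 ± 0.18 (limma adjusted p = 0.506), or -0.48 and -0.19 with replicate 1 or 2 of the mutant fed BW25113 left out. The ratio of hsp-12.3 to hsp-12.6 ran from 0.696 to 1.09 in wild type and from 0.743 to 2.81 in daf-16, highest in replicate 2 of daf-16 on hns food, where hsp-12.6 was lowest.

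The hsp-16.2 and hsp-16.41 genes lie next to each other on chromosome V on opposite strands and are read away from a shared intergenic region. Both encode heat-induced cytosolic chaperones, and the hsp-16.2 promoter is a widely used stress reporter. In wild type hsp-16.2 was measured at 0.824 and 1.83 FPKM with BW25113 as food against 3.07 and 2.43 FPKM with hns bacteria. In daf-16 the values were 3.001 and 2.19 FPKM with BW25113 against 4.44 and 4.57 FPKM with hns bacteria. The hns libraries lay above the BW25113 libraries in each genotype, and the mutant lay above wild type on each food, with the highest values where both came together. Taken singly, such orders were common among all genes tested. The food order held for 25.3% of them in wild type and 19.3% in daf-16. The genotype order held for 23.5% on BW25113 food and 17.5% on hns food.

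None of these hsp-16.2 differences passed. Food gave 0.72 ± 0.25 in wild type and 0.62 ± 0.25 in daf-16 (limma adjusted p = 0.255 and 0.746), and 0.67 ± 0.18 over both genotypes (95% interval 0.25 to 1.10, adjusted p = 0.127). Genotype gave 0.60 ± 0.18 over both foods (adjusted p = 0.23), in the direction of more hsp-16.2 without DAF-16. The interaction was 0.09 ± 0.35, with a 95% interval of -0.76 to 0.94. Without replicate 1 of wild type on BW25113 food, at about 8 fragments, the food effect in wild type was 0.40 and without replicate 2 it was 1.04 on the log2 scale.

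The partner gene hsp-16.41 followed hsp-16.2 only in part. Wild-type libraries held 0.676 and 2.79 FPKM with BW25113 as food against 3.65 and 2.56 FPKM with hns bacteria. Mutant libraries held 3.23 and 2.56 FPKM against 2.83 and 2.93 FPKM, so the groups overlapped in all 4 of these comparisons. The lowest value of both genes fell in the same library, replicate 1 of wild type on BW25113 food. Food gave 0.69 ± 0.38 in wild type and 0.00 ± 0.38 in daf-16 (limma adjusted p = 0.403 and 1.00). The wild-type value was 0.10 without replicate 1 and 1.28 without replicate 2 on BW25113 food. The ratio of hsp-16.2 to hsp-16.41 was 1.57 and 1.56 in daf-16 on hns food and lay between 0.657 and 1.22 in the other 6 libraries. Other HSP-16 genes are near-identical copies of each other, and how fragments that match several copies were shared is not given in the sources used here, so the HSP-16 levels carry that uncertainty.

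The last pair are larger proteins made without stress, both from genes on the X chromosome. HSP-25 is found at the dense bodies and M-lines of body wall muscle and in the pharynx. The hsp-25 transcript had the narrowest spread of the 8 genes, with a highest value 1.24 times the lowest. Wild-type libraries held 125 and 116 FPKM with BW25113 as food against 135 and 128 FPKM with hns bacteria. Mutant libraries held 118.8 and 144 FPKM against 140 and 135 FPKM. Its limma log2 fold changes lay between 0.07 and 0.13 in the 4 comparisons of groups (SE 0.10, adjusted p of 0.514 to 0.921), and the 95% interval for food over both genotypes ran from -0.07 to 0.27.

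The HSP-43 protein has been found in the hypodermis. In wild type hsp-43 was measured at 74.6 and 64.9 FPKM with BW25113 as food against 73.5 and 76.7 FPKM with hns bacteria. In daf-16 the values were 109 and 77.4 FPKM against 111 and 90.1 FPKM. All 4 mutant libraries lay above all 4 wild-type libraries, with replicate 1 the higher in both mutant groups. Among all genes tested that genotype order held for 4.22%. The means were 72.4 ± 5.18 and 97 ± 16.17 FPKM (SD, n = 4), and the limma log2 fold change of 0.40 ± 0.13 missed the threshold (95% interval 0.10 to 0.71, adjusted p = 0.258). All 6 muscle markers and all 6 hypodermis markers also lay above 0 for the genotype over both foods, with medians of 0.29 and 0.40 and 0 past the limma threshold in either list (4 and 2 at an unadjusted p under 0.05). Muscle markers summed to 455 to 526 FPKM in wild type and 496 to 688 FPKM in daf-16, and hypodermis markers to 836 to 1580 and 1169 to 1899 FPKM. The part of these tissues in the hsp-43 difference was not tested.

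**Figure D3:**
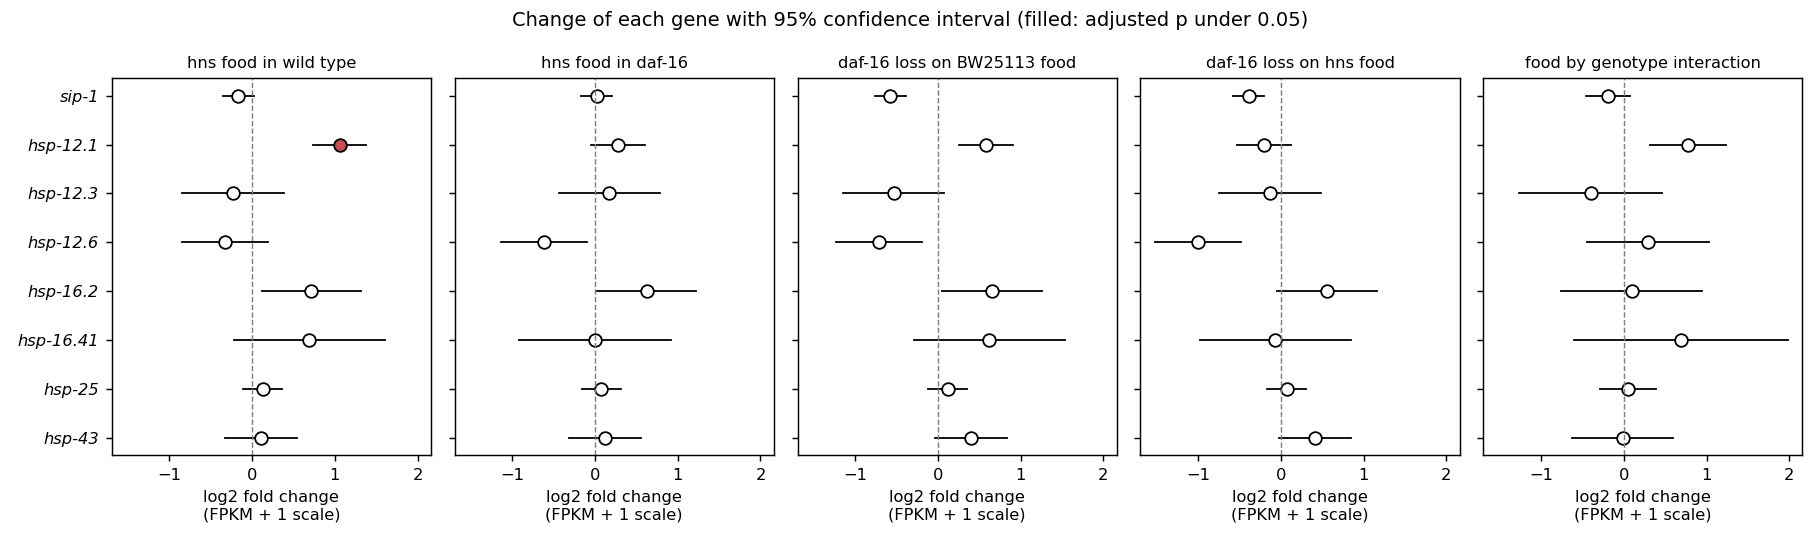
Limma log2 fold change of each gene on the log2(FPKM + 1) scale with its 95% confidence interval, in 5 comparisons with 2 libraries a group. The filled point, hsp-12.1 for hns food in wild type at 1.06, is the only one past an adjusted p of 0.05, and the intervals of hsp-16.41 are the widest.

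Read over the 8 genes, the members did not move as a block. For food in wild type 5 of 8 lay above 0 with a median of 0.12, against -0.003 over all genes tested, and in daf-16 6 of 8 lay above 0 with a median of 0.10 against -0.005. For genotype on BW25113 food 5 lay above 0 (median 0.26 against 0.01 over all genes), with 0 past the limma threshold and 4 at an unadjusted p under 0.05. On hns food 3 lay above 0 (median -0.10 against -0.005), with 0 past the threshold and 2 at an unadjusted p under 0.05. The share of all genes at an unadjusted p under 0.05 was not counted. Such counts, here and for the other lists, therefore have no background to be read against. Groups did not overlap for 5 members for food in wild type (54.2% of all genes tested), 3 for food in daf-16 (34%), 6 for genotype on BW25113 food (39.8%) and 5 for genotype on hns food (34.8%). With 4 libraries against 4, hsp-12.1 was the member without overlap for food (10.5% of all genes), and for genotype hsp-43 (higher), hsp-12.6 and sip-1 (lower) had none (6.37%).

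**Figure D4:**
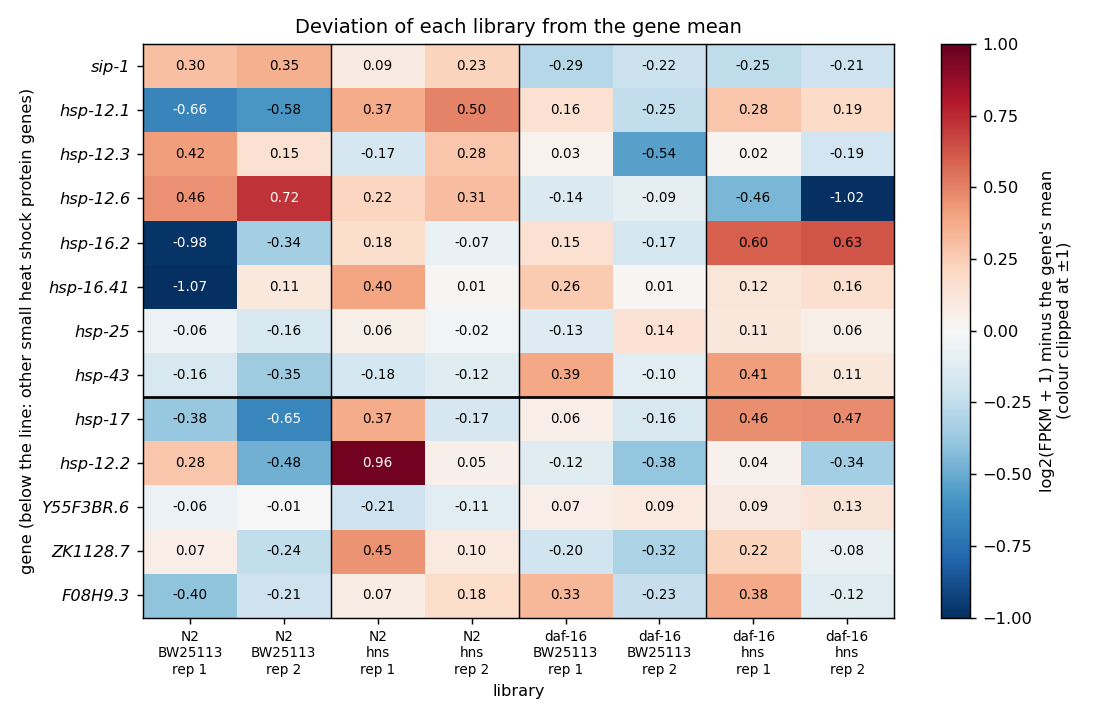
Deviation of log2(FPKM + 1) in each library from the mean of that gene over the 8 libraries, for the 8 genes and, below the line, the other 5 tested genes of the family. Deviations run from -1.07 for hsp-16.41 in replicate 1 of wild type on BW25113 food and -1.02 for hsp-12.6 in replicate 2 of daf-16 on hns food to 0.96 for hsp-12.2 in replicate 1 of wild type on hns food.

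Of 10 other small heat shock protein genes listed, 9 had a row (hsp-16.1 had none), and 5 of these were tested. None of the 5 passed in any of the 7 comparisons by limma, with 0 to 2 at an unadjusted p under 0.05. The group means of hsp-17 had the same order as those of hsp-16.2 at a higher level, with 73.5 and 60.7 against 124 and 85.2 FPKM in wild type and 100 and 85.6 against 132 and 133 FPKM in daf-16 (BW25113 against hns food). Its food effect over both genotypes was 0.57 ± 0.13 and its genotype effect over both foods 0.42 ± 0.13 (limma adjusted p = 0.103 and 0.268). The HSP-12 class gene hsp-12.2 stood at 114 to 312 FPKM, highest in replicate 1 of wild type on hns food, where its partner held 165 FPKM. The unnamed family genes Y55F3BR.6 and ZK1128.7 lay at 47.2 to 60.1 and 8.18 to 14.6 FPKM, and F08H9.3 (hsp-16.20 in the reference) at 0.964 to 2.39 FPKM. The copies hsp-16.11 and hsp-16.49 were listed at 0 in every library, hsp-16.48 at 0 to 0.471 FPKM and F08H9.4 at 0 to 1.05 FPKM, all under the filter. How fragments that match several copies were shared is not given, so a listed 0 does not show that a copy was silent.

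The large cytosolic chaperones, which take over clients from small heat shock proteins, did not pass either. Of 18 genes for HSF-1, its regulators and the large cytosolic chaperones, 15 were tested and 0 passed in any of the 7 comparisons by limma (0 or 1 at an unadjusted p under 0.05). The transcription factor gene hsf-1 lay between 65.5 and 74.7 FPKM, with -0.13 ± 0.06 for food in wild type and -0.06 ± 0.06 for genotype on BW25113 food (limma adjusted p = 0.364 and 0.825). The constitutive Hsp70 gene hsp-1 lay between 1536 and 1940 FPKM and the Hsp90 gene daf-21 between 2498 and 3192 FPKM. The heat-inducible Hsp70 genes were close to nothing, hsp-70 at 0.184 to 0.771 FPKM, F44E5.5 above 0 in 1 library and F44E5.4 listed at 0 in all. The list's median was -0.08 for food in wild type and -0.09 for genotype on BW25113 food, with all 15 below 0 in both. The medians over all genes tested were -0.003 and 0.01. All 8 oocyte markers also lay below 0 in both comparisons (medians -0.19 and -0.21). Of the 6 muscle markers 5 and 6 lay above 0.

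Among 9 tested genes often read as outputs of DAF-16, the lysozyme gene lys-7 and the catalase gene ctl-2 rose on hns food in wild type (limma log2 fold changes of 1.17 ± 0.15 and 0.80 ± 0.11, adjusted p = 0.0327 and 0.043), and the list's median was 0.12. The list did not move together, with 6 of the 9 above 0 and 3 below, the lowest at -0.65. Of all genes 0.872% were called in that comparison. In daf-16 0 of the 9 passed by limma (4 at an unadjusted p under 0.05), with 0.75 ± 0.15 for lys-7 and 0.83 ± 0.11 for ctl-2 (adjusted p = 0.215 and 0.0568). The food effects of these genes were not shown to differ between genotypes (interaction 0.42 ± 0.21 and -0.03 ± 0.16, limma adjusted p = 0.9999 for both). For genotype 7 of the 9 lay below 0 on BW25113 food and 6 on hns food. The lys-7 transcript was lower in the mutant on hns food (-1.54 ± 0.15, limma adjusted p = 0.0225) and over both foods (-1.33 ± 0.11, adjusted p = 0.00666). On BW25113 food alone its value was -1.12 ± 0.15 (adjusted p = 0.0755). For ctl-2 the genotype gave 0.09 ± 0.08 over both foods (limma adjusted p = 0.686). Of the 13 genes from the insulin receptor gene daf-2 to daf-16, only daf-16 itself passed, lower in the mutant on each food. For genotype 4 of the 13, daf-16 included, had an unadjusted p under 0.05 on each food, and 5 did over both foods. Over both foods 12 of the 13 lay below 0 (median -0.11). In the same comparison of foods in wild type the DAF-16 targets hsp-12.6 and hsp-16.2 gave -0.33 ± 0.21 and 0.72 ± 0.25, neither past the threshold.

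For each member the gene most like it over the 8 libraries was sought among genes with a mean of at least 5 FPKM, by Pearson's r on log2(FPKM + 1). The 8 libraries form only 4 groups and 10246 or 10247 genes were compared with each member, so a high r is a description. The muscle myosin light chain gene mlc-3 was closest to hsp-25 (r = 0.958). For sip-1 it was F15E6.3 (0.962), for hsp-12.1 it was C06G3.6 (0.983), for hsp-12.3 it was B0393.9 (0.976) and for hsp-12.6 it was F55H2.5 (0.961). For hsp-16.2 it was ZC239.22 (0.965), for hsp-43 it was T23F11.6 (0.987), and for hsp-16.41 it was F35H10.3 (0.972), which was listed at 0 in replicate 1 of wild type on BW25113 food. With median-ratio scaling pha-4 took the place of C06G3.6 beside hsp-12.1 (r = 0.98).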

How the data were processed

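The authors deposited FPKM in 1 table for all 8 libraries; the submitters' processing notes name build ce10, Cufflinks 2.2.1 and TopHat2 2.0.11 without their roles. Per the labels' protocols, RNA came from an RNeasy extraction and the library kit was SENSE mRNA (Lexogen). The sources used here give neither the annotation nor the use of strand, and a fragment shared by near-identical copies can be assigned to either. The gene lists and the members were chosen with earlier results of these data known.

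The 14564 genes that reached 1 FPKM in 2 or more libraries were kept. The values log2(FPKM + 1) were fitted by limma 3.58.1 (run in R 4.3.3), using a mean per group and a mean-variance trend, 4 residual and 2.32 prior degrees of freedom. Tests were two-sided. The 7 comparisons were food within each genotype, genotype on each food, the interaction, and the food and genotype effects averaged over the other factor. The fit was tested on simulated data with 200 changed genes. Depth was estimated by matching FPKM of single-transcript coding genes over 1000 nt, less 200 nt, to whole fragments. The depth taken was the one with the largest share of low values within 0.15 of a whole number. That share was 55.2% to 58.6%. A depth fixed beforehand would give 30% by chance, and the chance level of a best depth was not computed. The match was partial, so no count test was run. Names, chromosomes, strands, neighbours and lengths came from WBcel235, not ce10, so no coordinates are given. Named were all 8 members, daf-16, the other listed family genes, and the closest gene to each member. Of each further list and comparison at most 4 genes past the threshold were named. The hsf-1, hsp-1, daf-21, hsp-70, F44E5.4, F44E5.5, col-19 and rme-2 genes were named after their values were seen.

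Replicate numbers were not treated as pairs. Alternatives were a pseudocount of 0.1, no filter, a mean of at least 5 FPKM, median-ratio scaling, a replicate block, only the 4 libraries compared, and each library left out.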

Additional observations from a re-analysis of the deposited data

Results flagged for a closer look

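The genotype difference of hsp-12.1 pointed in opposite directions on the foods, with every mutant library above every wild-type library on BW25113 food and below on hns food. Taken singly, the first order held for 23.5% of all genes tested and the second for 17.3%. The share of genes with both was not counted. The interaction of hsp-12.1, the food effect in wild type minus that in daf-16, was 0.78 ± 0.19 on the log2 scale. It did not pass over all genes (limma adjusted p = 0.9999, lowest 0.174 over 13 alternatives). Of the hypodermis markers, all 6 lay above 0 for genotype on BW25113 food (median 0.85) and 2 of 6 on hns food (median -0.11). Their interaction had a median of 1.09, with 5 of 6 above 0 and 0 past the limma threshold (4 at an unadjusted p under 0.05). Their part in the hsp-12.1 result was not tested.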

How the results depend on the processing

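Of 56 results for a member in a comparison, 52 stayed on their side of the threshold under every alternative run. The exceptions were hsp-12.1 for food in wild type and over both genotypes, and sip-1 for genotype over both foods and on BW25113 food. Every member result past the threshold in the reported fit was among these exceptions, so the 52 were all results that had not passed. No called member changed direction, but 14 of the 56 results changed sign under at least 1 alternative. At a mean of at least 5 FPKM hsp-12.3, hsp-12.6, hsp-16.2 and hsp-16.41 were left out and have no value. Without a filter the count of members called fell from 1 to 0 for food in wild type (hsp-12.1, limma adjusted p = 0.0649) and over both genotypes (0.0623); more genes were tested there. With only the 4 libraries compared it was 0 for food in wild type (0.0637). Leaving out a library gave 0 to 1 members for these and for genotype over both foods, and 0 in the other comparisons.

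Genes called over the whole table moved from 127 for food in wild type to 60 without a filter, 488 with the replicate block and 42 with only the 4 libraries compared. They moved from 256 to 140 and 796 without a filter and with the block for food over both genotypes, from 121 to 253 with the block for genotype over both foods, from 38 to 22 with only the 4 libraries for genotype on BW25113 food, and from 14 to 31 without a filter and 4 at a mean of at least 5 FPKM for the interaction. The share of higher calls fell without a filter, to 31 higher and 29 lower for food in wild type (94 and 33 in the reported fit) and 81 and 59 for food over both genotypes (181 and 75). The cause was not tested. Leaving out a library gave 35 to 83 for food in wild type, 31 to 61 in daf-16, 17 to 28 for genotype on BW25113 food, 12 to 35 on hns food, 13 to 24 for the interaction, 78 to 162 for food over both genotypes and 47 to 103 for genotype over both foods. A group left with 1 library was assumed to vary like the others.

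Replicate numbers shared between groups did not meet the rule for pairing, with correlations of same-numbered deviations of 0.02 to 0.16, all above 0. The sip-1 transcript was lower in replicate 1 than in replicate 2 of every group. With the replicate block sip-1 passed for genotype on BW25113 food (limma adjusted p = 0.0336), making 1 member called there. Median-ratio scaling moved the median of all genes to at most 0.0113 from 0. With 7 to 85 fragments a library, the 4 low members allow only large changes to be seen.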
